A study of Arabidopsis thaliana with 12 samples.

Results

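The mitochondrial genome of Arabidopsis thaliana encodes a small set of proteins, and 16 of its genes could be followed here on expression arrays. They were taken as the probe sets annotated to a single gene of that genome, by gene symbol (nad, ccb, cox, orf, mat and the like) or mitochondrial locus tag. The rule found 23 of the 22810 probe sets on the array. It gave 7 probe sets for nad1, 2 for nad5 and 1 for each of the other 14 genes. For nad1 and nad5 the gene is represented by its brightest probe set, judged by the mean of the 12 arrays. RefSeq records of the TAIR10.1 assembly, used for names and gene order only, list 32 protein gene symbols in this genome. All 16 genes matched one of them, 5 under another name: ccb203 is ccmFN2, ccb206 is ccmB, ccb382 is ccmFN1, ccb452 is ccmFC and orfX is mttB. The symbol rule also caught matK, which is a chloroplast gene and was left out.

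Mitochondria keep their own genome for a few core parts of respiration, and most of the subunits of the respiratory complexes are encoded in the nucleus and imported. In plants, mitochondrial genes are transcribed by phage-type RNA polymerases that the nucleus encodes. Their transcripts are then edited from C to U at many positions, spliced from group II introns and trimmed, so that transcript levels depend on RNA processing and stability as well as on transcription. Several complex I messages, those of nad1, nad2 and nad5, are joined by trans-splicing from separate precursor RNAs. The measured genes fall into 8 that encode subunits of complex I, 2 of complex IV, 4 for the maturation of cytochrome c, 1 maturase and 1 protein transport gene.

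The samples were aerial parts of wild-type seedlings of the Columbia ecotype, 10 days old. After 9 days at 22 °C under constant white light, they were moved for 24 h to 1 of 4 conditions, each with 3 arrays labelled as biological replicates. The groups combined white light plus a far-red supplement (WFR) or white light alone (WL) with the warmer or the cooler temperature, and are called WFR 26 °C, WL 26 °C, WFR 22 °C and WL 22 °C. The supplement imitates light reflected by neighbouring leaves and starts shade avoidance. All values are deposited log2 expression values, and all differences are log2 differences from 1 limma fit to the 12 arrays, called at an adjusted p under 0.05.

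The array medians lay between 6.91 and 7.01, and arrays of the same group correlated across probe sets at 0.9953 to 0.9979. Whole aerial parts hold many cell types, so fewer cells of a type, fewer mitochondria and less RNA per mitochondrion cannot be told apart. Of the 8 green tissue markers, 1 had a probe set with a single gene, RCA, the chaperone of Rubisco, with a mean log2 value of 14.4. Of 7 root markers, 2 were measured: PYK10, a glucosidase of ER bodies that roots express strongly, averaged 11.9 and EXPA7, an expansin of root hairs, averaged 4.99. None of the 3 passed the test in a comparison. The labelling used oligo-dT priming per the labels' protocols, and plant mitochondrial messages are not stably polyadenylated, so how fully these transcripts were copied was not tested.

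A further limit is the annotation. A block on nuclear chromosome 2 carries copies of mitochondrial genes, and 12 probe sets were annotated to several genes of which 1 or more is mitochondrial. These 12, of which 11 pair a mitochondrial gene with a locus of that block, stand for no single gene here and are described apart. For 5 of the 16 genes (ccb452, matR, nad5, nad6 and orfX) the probe set is of the _s_at kind, whose probes match several transcripts, so their values are uncertain as to source. The genes cob, cox3, atp1, atp4, atp6, atp8 and atp9 had no probe set of their own. Of these, cob, cox3, atp1 and atp9 were measured only by shared probe sets among those 12. No probe set analysed here was annotated to atp4, atp6 or atp8.

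Across the 7 comparisons, 1 of the 16 genes passed the test, ccb452, in the average of the 2 temperature differences. With far-red light at 26 °C, 0 of 16 passed (limma, smallest adjusted p = 0.695), against 0.0879% of all tested probe sets, and 2 of 16 had an unadjusted p under 0.05, against 6.81% of all. With far-red light at 22 °C, 0 of 16 passed (smallest adjusted p = 0.285) against 0.659% of all, and 1 had an unadjusted p under 0.05, against 13.2%. For warmth with far-red light, 0 of 16 passed (smallest adjusted p = 0.153) against 1.1% of all, and 2 had an unadjusted p under 0.05, against 14.1%. For warmth in white light, 0 of 16 passed (smallest adjusted p = 0.179) against 0.611% of all, and 3 had an unadjusted p under 0.05, against 12.8%. The single comparisons gave no called gene, and with shares of called probe sets this small in the whole table, counts of 0 among 16 genes are no result about these genes in particular.

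The averages use 6 arrays on each side. For the average far-red difference, 0 of 16 passed (limma, smallest adjusted p = 0.171) against 1.12% of all tested probe sets, and 4 had an unadjusted p under 0.05, against 14.5%. For the average temperature difference, 1 of 16 passed, higher at 26 °C, against 5.39% of all called and 2.92% called higher, and the same gene alone had an unadjusted p under 0.05, against 19.3% of all. For the interaction, the far-red difference at 26 °C minus that at 22 °C, 0 of 16 and 0% of all tested probe sets passed (smallest adjusted p among the 16 genes = 0.902), and 2 had an unadjusted p under 0.05, against 5.51%. The called share among the 16 genes was near that of all probe sets in each comparison.

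**Figure D1:**
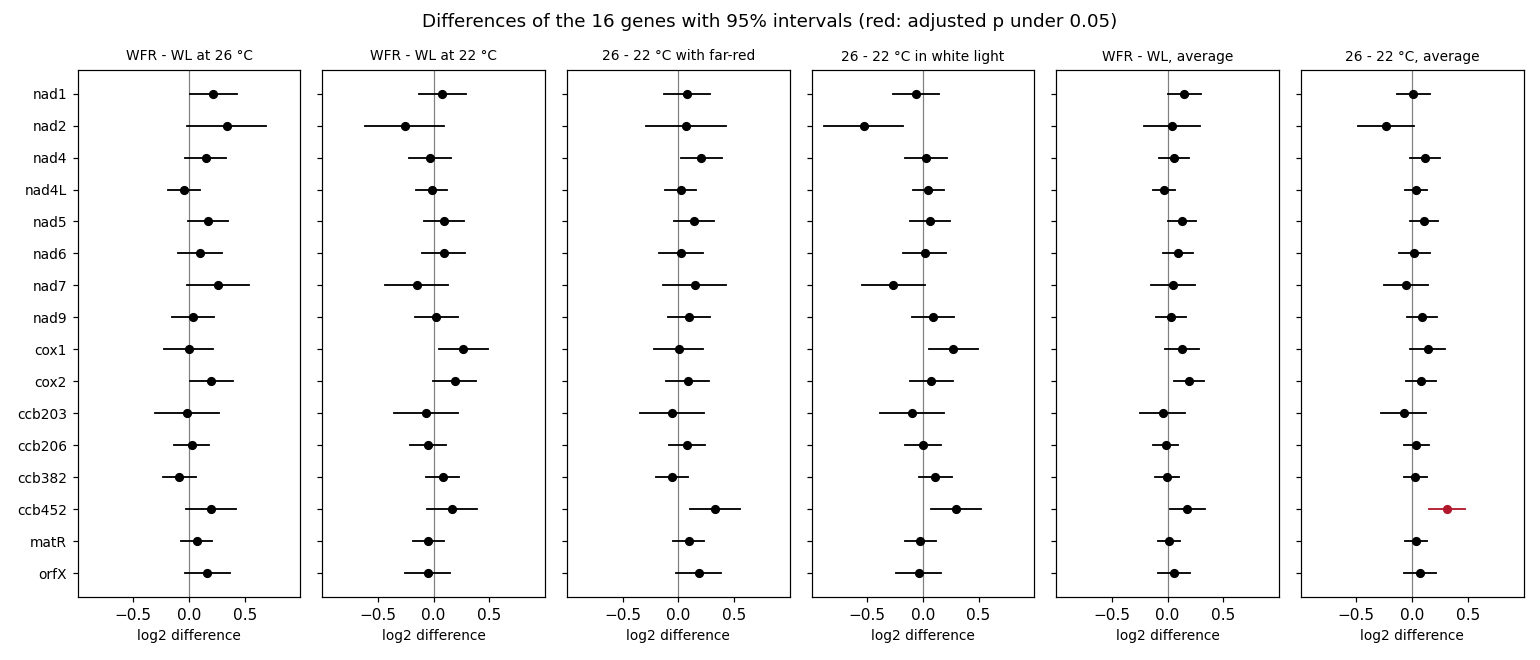
Log2 differences of the 16 genes (points, horizontal axis) with the model's 95% intervals (lines) in 6 comparisons, one panel each, with genes grouped by role down the page. The only red point, past the adjusted threshold, is ccb452 in the average temperature difference, at 0.31.

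The sizes were small throughout. The median difference over the 16 genes was 0.12 with far-red light at 26 °C, against 0.015 over all tested probe sets, and 0.0043 at 22 °C, against 0.0024. For warmth it was 0.081 with far-red light, against 0.0030 over all, and 0.021 in white light, against -0.012. Positive differences were found for 12 of 16 genes with far-red light at 26 °C (56.7% of all probe sets), 8 at 22 °C (50.8%), 14 for warmth with far-red light (51.2%) and 10 for warmth in white light (45.4%). These comparisons share arrays in pairs, since WFR 26 °C, for instance, enters 2 of them. The 95% intervals of all 16 genes lay within 0.5 on either side of 0 for both averages, and for 14 genes with far-red light at 26 °C, 15 at 22 °C, 15 for warmth with far-red light and 13 for warmth in white light. A change beyond 0.5, or 1.41-fold, was therefore outside the interval for most genes. Smaller changes could be missed, and only 1 was called, the average temperature difference of ccb452, at 0.31.

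Complex I is the NADH dehydrogenase that feeds electrons into the chain. Its 8 measured genes encode the membrane arm subunits nad1, nad2, nad4, nad4L, nad5 and nad6 and the matrix arm subunits nad7 and nad9. None passed the test in any comparison. With far-red light at 26 °C, 7 of 8 had a positive difference, with a median of 0.16, and with far-red light at 22 °C 4 of 8 did, with a median of 0.0043. For warmth with far-red light all 8 differences were positive, between 0.022 and 0.21, and in white light 5 of 8 were, between -0.53 and 0.087.

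The widest differences among the 16 genes were those of nad2, one of the proton-pumping subunits. Its log2 values were 5.19, 5.26 and 5.57 in WFR 26 °C, 5.25, 4.93 and 4.82 in WL 26 °C, 5.48, 5.08 and 5.26 in WFR 22 °C and 5.94, 5.34 and 5.31 in WL 22 °C. All 3 WL 26 °C arrays were below all 3 WL 22 °C arrays, while the far-red arrays of the 2 temperatures overlapped, and the WL 22 °C group contained 1 array well above its other 2. In white light nad2 differed by -0.53 ± 0.166 (SE) between 26 and 22 °C, a ratio of 0.692, which did not pass (limma, adjusted p = 0.179). Without WL 22 °C replicate 1, the high array, this difference was -0.32 (adjusted p = 0.347). Under far-red light the temperature difference was 0.068 ± 0.166 (adjusted p = 0.903). The interaction was 0.60, with a 95% interval of 0.095 to 1.103, and an adjusted p = 0.902, and without WL 22 °C replicate 1 it was 0.39 (adjusted p = 0.907).

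The other gene with an interaction at an unadjusted p under 0.05 was nad7, a matrix arm subunit close to the ubiquinone site. Its log2 values were 5.55, 5.47 and 5.55 in WFR 26 °C, 5.48, 5.18 and 5.14 in WL 26 °C, 5.34, 5.09 and 5.71 in WFR 22 °C and 5.67, 5.46 and 5.46 in WL 22 °C. Values were lowest on 2 WL 26 °C arrays and 1 WFR 22 °C array, and every pair of groups compared overlapped. The far-red difference was 0.26 ± 0.130 at 26 °C and -0.15 ± 0.130 at 22 °C (limma, adjusted p = 0.751 and 0.655). The interaction of 0.41 had a 95% interval of 0.016 to 0.81 and an adjusted p = 0.902, and without WFR 22 °C replicate 2 it was 0.27 (adjusted p = 0.892). Neither nad2 nor nad7 was thus shown to respond to far-red light differently at the 2 temperatures.

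For nad4, nad1 and nad5 the WFR 26 °C arrays lay above all WL 26 °C arrays, as for 9.17% of all tested probe sets. The same held for cox2 and ccb452 but not for the other membrane arm genes nad2, nad4L and nad6. For nad4 the values were 9.68, 9.65 and 9.66 in WFR 26 °C, 9.50, 9.49 and 9.55 in WL 26 °C, 9.34, 9.37 and 9.65 in WFR 22 °C and 9.34, 9.60 and 9.51 in WL 22 °C. Both groups from 26 °C were tight, with SDs of 0.014 and 0.031, and both groups from 22 °C were wide, with SDs of 0.17 and 0.13. The far-red difference of nad4 was 0.15 ± 0.0874 at 26 °C (limma, adjusted p = 0.793), and its temperature difference under far-red light was 0.21 ± 0.0874 (adjusted p = 0.291). Those groups did not overlap either, but their nearest arrays both read 9.65.

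For nad1, which carries the matR gene within one of its introns, the values were 5.84, 5.92 and 5.98 in WFR 26 °C, 5.73, 5.67 and 5.69 in WL 26 °C, 5.92, 5.59 and 5.99 in WFR 22 °C and 5.62, 5.76 and 5.88 in WL 22 °C. The groups were separate at 26 °C and overlapped at 22 °C. Its far-red difference was 0.22 ± 0.0976 at 26 °C, the smallest adjusted p of that comparison among the 16 genes (limma, 0.695), and 0.079 ± 0.0976 at 22 °C. On the other nad1 probe sets the light groups overlapped at 26 °C, with far-red differences of 0.017 to 0.12. For nad5 the values were 5.92, 5.85 and 5.98 in WFR 26 °C, 5.68, 5.82 and 5.74 in WL 26 °C, 5.87, 5.84 and 5.61 in WFR 22 °C and 5.64, 5.80 and 5.60 in WL 22 °C. Again the light groups were separate at 26 °C alone, with a far-red difference of 0.17 ± 0.0828 (adjusted p = 0.745) at 26 °C and 0.093 ± 0.0828 (adjusted p = 0.669) at 22 °C. The average far-red differences were 0.15 for nad1 and 0.13 for nad5 (adjusted p = 0.341 and 0.321). On the other nad1 probe sets this average ranged from -0.078 to 0.087.

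The remaining complex I genes, nad4L, nad6 and nad9, had differences between -0.045 and 0.10 in the 4 single comparisons. For nad4L the 12 values lay between 5.09 and 5.30, for nad6 between 5.48 and 5.83 and for nad9 between 5.77 and 6.13. In each of them the groups overlapped in all 4 single comparisons.

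**Figure D2:**
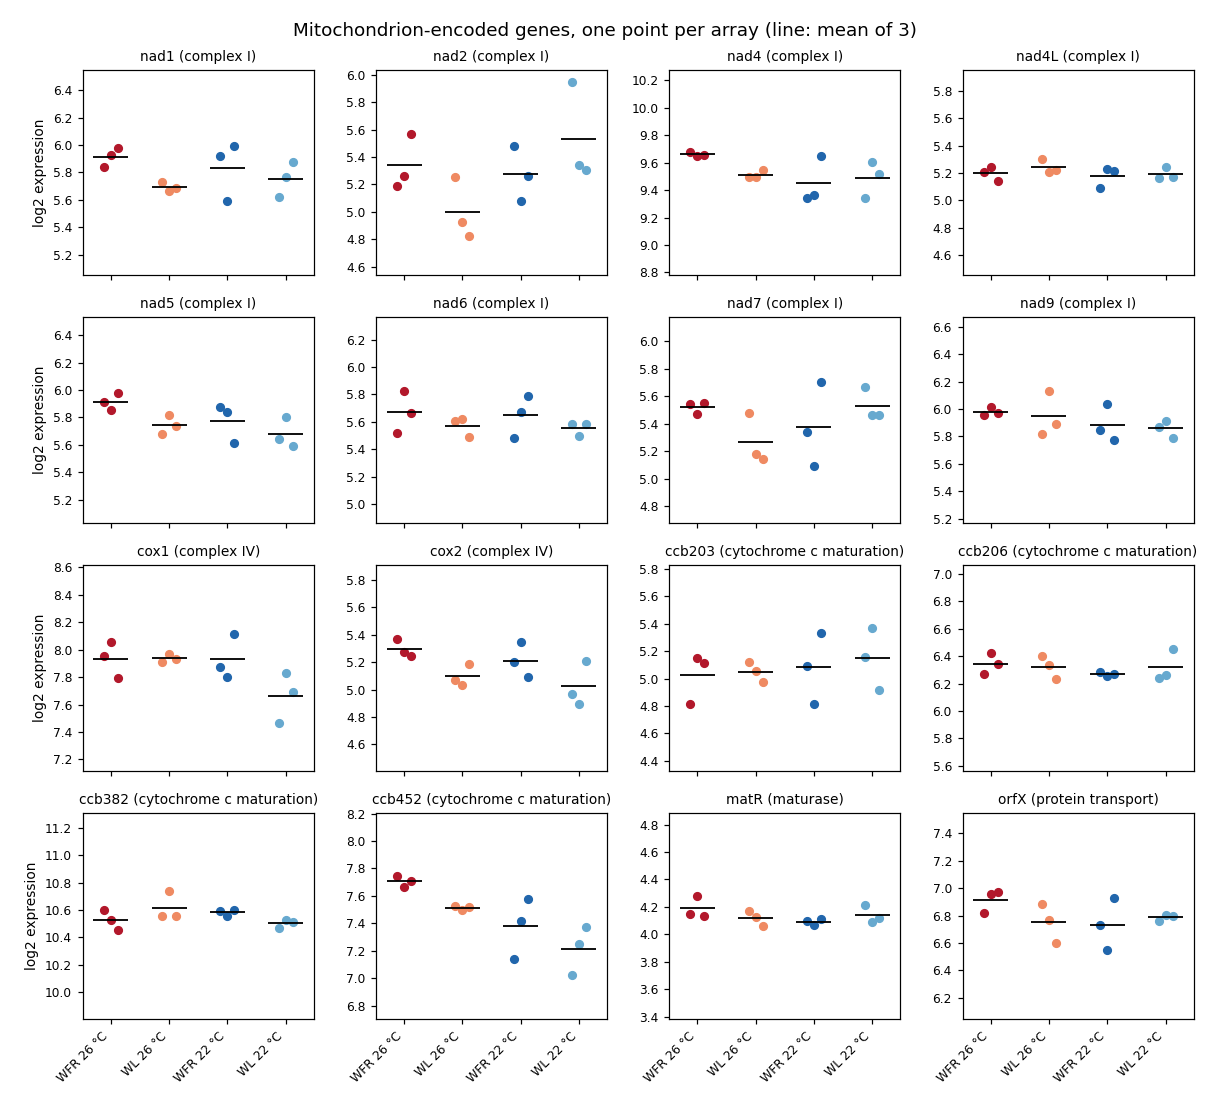
Deposited log2 expression (vertical axis, each panel spanning 1.5 units around the gene's own mean) of the 16 genes on each array, by group, with the mean of 3 as a line. In ccb452 both 26 °C groups lie above the 22 °C groups of the same light, and in nad2 the WL 26 °C group has the lowest mean. In nad4L, nad6, nad7, nad9, ccb203, ccb206 and orfX the groups overlap in each single comparison.

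Complex IV, cytochrome c oxidase, passes electrons to oxygen. Its catalytic subunit cox1 had values of 7.95, 8.06 and 7.80 in WFR 26 °C, 7.91, 7.97 and 7.93 in WL 26 °C, 7.88, 7.80 and 8.11 in WFR 22 °C and 7.47, 7.83 and 7.69 in WL 22 °C. The WL 22 °C group had the lowest mean, 7.66 ± 0.185 (SD), and the other 3 group means lay between 7.93 and 7.94. In white light the 26 °C arrays were all above the 22 °C arrays, with a difference of 0.27 ± 0.102 (limma, adjusted p = 0.27). With far-red light at 22 °C cox1 differed by 0.27 ± 0.102 from white light (adjusted p = 0.285), with 1 WFR array below 1 WL array. These 2 differences share the WL 22 °C arrays. The interaction was -0.27 (adjusted p = 0.939).

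The other measured subunit, cox2, holds the copper centre that receives electrons from cytochrome c. Its values were 5.37, 5.27 and 5.24 in WFR 26 °C, 5.07, 5.03 and 5.19 in WL 26 °C, 5.20, 5.34 and 5.09 in WFR 22 °C and 4.97, 4.90 and 5.21 in WL 22 °C. The light groups were separate at 26 °C and overlapped at 22 °C. Its far-red difference was nearly equal at the 2 temperatures, 0.20 ± 0.0901 at 26 °C and 0.19 ± 0.0901 at 22 °C, and the average of 0.19 ± 0.0637 had the smallest adjusted p of the average far-red comparison among the 16 genes (limma, 0.171). The temperature differences of cox2 were 0.084 with far-red light and 0.074 in white light.

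The 4 ccb genes encode parts of the machinery that attaches haem to cytochrome c. The one called gene, ccb452 (ccmFC), encodes a subunit of the haem lyase and was read by an _s_at probe set, uncertain as to source. Its log2 values were 7.75, 7.67 and 7.71 in WFR 26 °C, 7.53, 7.50 and 7.52 in WL 26 °C, 7.14, 7.42 and 7.58 in WFR 22 °C and 7.02, 7.25 and 7.38 in WL 22 °C. In each light the 26 °C arrays lay above all 22 °C arrays of that light, and the 26 °C groups, with SDs of 0.041 and 0.015, were tighter than the 22 °C groups, with SDs of 0.22 and 0.18. The temperature difference was 0.33 ± 0.105 with far-red light (limma, adjusted p = 0.153) and 0.30 ± 0.105 in white light (adjusted p = 0.232). Their average, 0.31 ± 0.0739 with a 95% interval of 0.15 to 0.47, was a 1.24-fold rise (adjusted p = 0.0254).

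The call for ccb452 was lost when WFR 26 °C replicate 1 or 3, or any of the 3 WL 26 °C arrays, was left out (limma, adjusted p of 0.0507 to 0.0568), with differences of 0.30 to 0.32, and it was kept when any of the other 7 arrays was left out. The interaction for ccb452 was 0.029 (adjusted p = 0.996) and its average far-red difference 0.18 ± 0.0739 (adjusted p = 0.281). The root marker PYK10 did not pass for the same contrast. Its group means were 12.02 in WFR 26 °C, 12.14 in WL 26 °C, 11.95 in WFR 22 °C and 11.67 in WL 22 °C, with an average temperature difference of 0.27 ± 0.0798 (adjusted p = 0.067), made up of 0.067 with far-red light and 0.47 in white light (adjusted p = 0.851 and 0.0862). EXPA7, the other measured root marker, had means of 4.93, 5.05, 5.00 and 4.99 in the same order and a difference of -0.0062 (adjusted p = 0.982). The part of root tissue in the ccb452 result was not tested.

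The other haem lyase genes, ccb382 (ccmFN1) and ccb203 (ccmFN2), and the transporter subunit gene ccb206 (ccmB) did not pass in any comparison. For ccb382 the 12 values lay between 10.46 and 10.74. The 3 arrays of WL 26 °C (10.55, 10.74 and 10.56) and the 3 of WFR 22 °C (10.59, 10.56 and 10.60) were all above the WL 22 °C arrays, at 10.47, 10.53 and 10.51. The differences behind this were 0.11 ± 0.0685 for warmth in white light and 0.080 ± 0.0685 for far-red light at 22 °C (limma, adjusted p = 0.541 and 0.656). For ccb203 the 12 values lay between 4.82 and 5.37, with negative differences in all 4 single comparisons, the largest in size being -0.099 ± 0.134 for warmth in white light. For ccb206 they lay between 6.23 and 6.45, and its differences between -0.053 and 0.077. The average temperature differences of ccb382, ccb206 and ccb203 were 0.028, 0.039 and -0.076, beside the 0.31 of ccb452.

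The maturase gene matR encodes a protein related to reverse transcriptases that takes part in intron splicing. Its 12 values lay between 4.06 and 4.28, and it is the 1 gene of the 16 whose mean falls among the lowest 25% of probe sets. Its far-red groups did not overlap between temperatures, with a difference of 0.095 ± 0.0655 (limma, adjusted p = 0.568). The gene orfX (mttB) encodes a membrane protein related to the TatC subunit of the twin-arginine protein translocase. Its values were 6.82, 6.96 and 6.97 in WFR 26 °C, 6.88, 6.77 and 6.60 in WL 26 °C, 6.73, 6.55 and 6.93 in WFR 22 °C and 6.76, 6.81 and 6.80 in WL 22 °C. The groups overlapped in each comparison, and its largest differences were 0.18 ± 0.0950 for warmth with far-red light (adjusted p = 0.419) and 0.16 ± 0.0950 for far-red light at 26 °C (adjusted p = 0.788).

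Separate groups, counted over the 16 genes, were found with the WFR arrays higher for 5 genes at 26 °C (nad1, nad4, nad5, cox2 and ccb452), against 9.17% of all tested probe sets, and for 1 gene at 22 °C (ccb382), against 9.16%. At 26 °C the light groups of nad1 and nad5 were separate only on the probe set used for each gene. With far-red light the 26 °C arrays were higher for 3 genes (nad4, ccb452 and matR), against 9.75% of all. In white light they were higher for 3 genes (cox1, ccb382 and ccb452), against 8.31%, and lower for 1 gene (nad2), against 10.3%. Genes of 1 genome measured on the same arrays do not vary independently, so these counts are a description. On each array, the median deviation of the 16 genes from their own means over 12 arrays was 0.037, 0.11 and 0.070 in WFR 26 °C, 0.015, -0.0024 and -0.056 in WL 26 °C, -0.033, -0.063 and 0.083 in WFR 22 °C and -0.059, -0.017 and -0.020 in WL 22 °C. The WFR 26 °C arrays were high on average, but 1 WFR 22 °C array, replicate 3, lay between them.

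The probe sets of nad1 differed among themselves. Of its 7 probe sets, 257322_at, which is not the one with the highest mean, passed the test for the average temperature difference, with 0.19 ± 0.0512 (limma, adjusted p = 0.0473). Its values were 5.78, 5.54 and 5.61 in WFR 26 °C, 5.66, 5.59 and 5.56 in WL 26 °C, 5.52, 5.48 and 5.44 in WFR 22 °C and 5.42, 5.32 and 5.43 in WL 22 °C, so that the 26 °C arrays were above the 22 °C arrays in both lights. This call was lost when any of 11 of the 12 arrays was left out (adjusted p of 0.0567 to 0.113). The other 6 nad1 probe sets had average temperature differences of -0.074 to 0.055, with 257324_at, which stands for the gene, at 0.0086 (adjusted p = 0.966). The second nad5 probe set, 257337_at, had an average temperature difference of 0.15 ± 0.0710 (adjusted p = 0.271) and an average far-red difference of -0.033, against 0.10 and 0.13 for the one used. Which exons or introns each probe set covers was not analysed here.

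**Figure D3:**
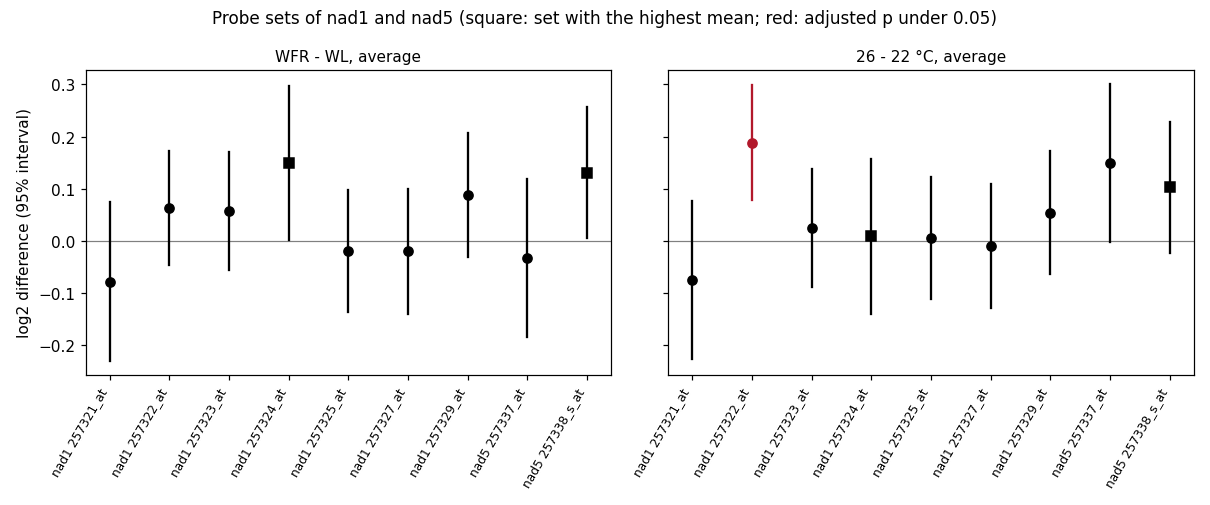
Average far-red and average temperature log2 differences (vertical axis) with 95% intervals for the 7 nad1 and 2 nad5 probe sets. Squares mark the probe set that stands for the gene, and the 1 red point, 257322_at for temperature at 0.19, is past the adjusted threshold while the other nad1 probe sets lie near 0.

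Among the 12 probe sets annotated to several genes with a mitochondrial one, 3 were higher at 26 °C in the average temperature difference, where 2.92% of all tested probe sets were called higher, and their median difference was 0.056. The largest rise was that of 257339_s_at, annotated to atp9 and AT2G07671. Its values were 8.88, 8.86 and 8.79 in WFR 26 °C, 8.72, 8.96 and 9.08 in WL 26 °C, 8.55, 8.36 and 8.40 in WFR 22 °C and 8.11, 8.13 and 8.38 in WL 22 °C. All 26 °C arrays were above all 22 °C arrays. It rose by 0.72 ± 0.0970 in white light (limma, adjusted p = 0.00361) and by 0.56 ± 0.0686 on average (adjusted p = 0.000581), and both calls were kept whichever array was left out.

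The probe set 265228_s_at, annotated to atp1 and AT2G07698, rose by 0.28 ± 0.0619 on average at 26 °C (limma, adjusted p = 0.0178), a call lost without WL 26 °C replicate 2 (adjusted p = 0.0532). Its values were 7.60, 7.64 and 7.51 in WFR 26 °C, 7.45, 7.50 and 7.40 in WL 26 °C, 7.40, 7.46 and 7.47 in WFR 22 °C and 6.86, 7.25 and 6.97 in WL 22 °C, the last group being below all others. Its further calls, 0.42 for far-red light at 22 °C (adjusted p = 0.047), 0.42 for warmth in white light (0.0485) and 0.28 for the average far-red difference (0.0484), were each lost in 11 of 12 fits without 1 array. The third, 266044_s_at, annotated to rpl5 and AT2G07725, rose by 0.22 ± 0.0599 on average at 26 °C (adjusted p = 0.0472), and this call was lost in 10 of those 12 fits. Whether the signal of these 3 probe sets comes from the mitochondrial gene or from the nuclear copy cannot be told apart.

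Of 22 probe sets annotated to a single locus of the chromosome 2 block, AT2G07707 rose at 26 °C by 0.36 ± 0.0602 on average (limma, adjusted p = 0.00454), a call kept whichever array was left out. It was the only 1 of the 22 called for temperature, against 2.92% of all tested probe sets called higher. Its values were 7.77, 7.51 and 7.52 in WFR 26 °C, 7.27, 7.42 and 7.42 in WL 26 °C, 7.36, 7.29 and 7.19 in WFR 22 °C and 6.87, 7.04 and 7.01 in WL 22 °C. The 26 °C arrays were above the 22 °C arrays in white light and also with far-red light. AT2G07708 rose with far-red light by 0.31 ± 0.0648 on average (adjusted p = 0.0398), again 1 of 22, against 0.827% of all called higher, and this call was lost in 10 of 12 fits without 1 array. Both probe sets are of the _s_at kind, so whether their signal comes from the nuclear locus or from the mitochondrial genome cannot be told apart. No other of the 22 passed. The median average temperature difference of the 22 was 0.015, against 0.038 for the 16 single mitochondrial genes and -0.0064 for all tested probe sets.

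The nuclear partners of these genes were taken from lists of respiratory complex subunits, alternative respiration and mitochondrial gene expression, of which 60 of 121 genes had a probe set of their own. No nuclear gene of these lists passed the test for far-red light at 26 °C, at 22 °C or on average, for warmth under far-red light or in the interaction. An unadjusted p under 0.05 was found for 2 of 60 at 26 °C (6.81% of all tested probe sets), 6 at 22 °C (13.2%), 2 for the average far-red difference (14.5%), 13 for warmth under far-red light (14.1%) and 2 for the interaction (5.51%). For warmth in white light it was found for 11 of 60 (12.8%), and for the average temperature difference for 17 of 60 (19.3%). Of the 47 subunit and assembly genes of complexes I to V, 1 rose and 2 fell in the average temperature difference (limma), where 2.92% of all tested probe sets were called higher and 2.48% lower, and the median difference was -0.011. AT5G25450, which encodes a 14 kDa subunit of complex III, rose by 0.59 ± 0.0810 on average (adjusted p = 0.00132) and by 0.70 ± 0.115 in white light (adjusted p = 0.0115). The average call was kept whichever array was left out, and the call in white light was lost without WL 26 °C replicate 3 (adjusted p = 0.0754). Its values were 6.40, 6.52 and 6.27 in WFR 26 °C, 6.65, 6.68 and 6.85 in WL 26 °C, 5.61, 6.03 and 6.10 in WFR 22 °C and 5.90, 6.09 and 6.09 in WL 22 °C, with all 26 °C arrays above all 22 °C arrays. Of the 17 measured nuclear complex I genes 0 passed for the average temperature difference (limma), against 5.39% of all tested probe sets, and 4 had an unadjusted p under 0.05, against 19.3%, with a median difference of 0.0031.

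The 2 that fell were AT2G19680, an ATP synthase subunit gene, by 0.32 ± 0.0731 (limma, adjusted p = 0.0234), and AT1G80230, a complex IV subunit gene, by 0.18 ± 0.0447 (adjusted p = 0.0346). Their calls were lost in 4 and in all 12 of the fits without 1 array. Of 6 genes of alternative respiration, NDB1, an external NAD(P)H dehydrogenase, fell by 0.30 ± 0.0732 (adjusted p = 0.0278, lost in 7 of 12 fits), where 2.48% of all tested probe sets were called lower. NDB2, of the same family, differed by 0.14 ± 0.0942 (adjusted p = 0.473). AOX1A, the stress-inducible alternative oxidase, was not analysed here.

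Of the 7 measured genes for mitochondrial gene expression, 1 rose and 1 fell at 26 °C on average, against 2.92% of all tested probe sets called higher and 2.48% called lower. AT5G46920 (nMAT2), a nuclear maturase needed for splicing of mitochondrial introns, rose by 0.26 ± 0.0666 (limma, adjusted p = 0.0366). Its values were 8.44, 8.41 and 8.41 in WFR 26 °C, 8.44, 8.47 and 8.54 in WL 26 °C, 8.26, 8.20 and 7.93 in WFR 22 °C and 8.06, 8.32 and 8.39 in WL 22 °C, with the 26 °C arrays above all 22 °C arrays. AT5G14580, the mitochondrial polynucleotide phosphorylase that degrades and trims RNA, fell by 0.28 ± 0.0714 (adjusted p = 0.0376). Each of these calls was lost in 9 of the 12 fits without 1 array. AT5G15700 (RPOTmp), an RNA polymerase of mitochondria and plastids, differed by 0.061 ± 0.0950 (adjusted p = 0.804), and the RNA polymerase gene RPOTm was not analysed here.

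**Figure D4:**
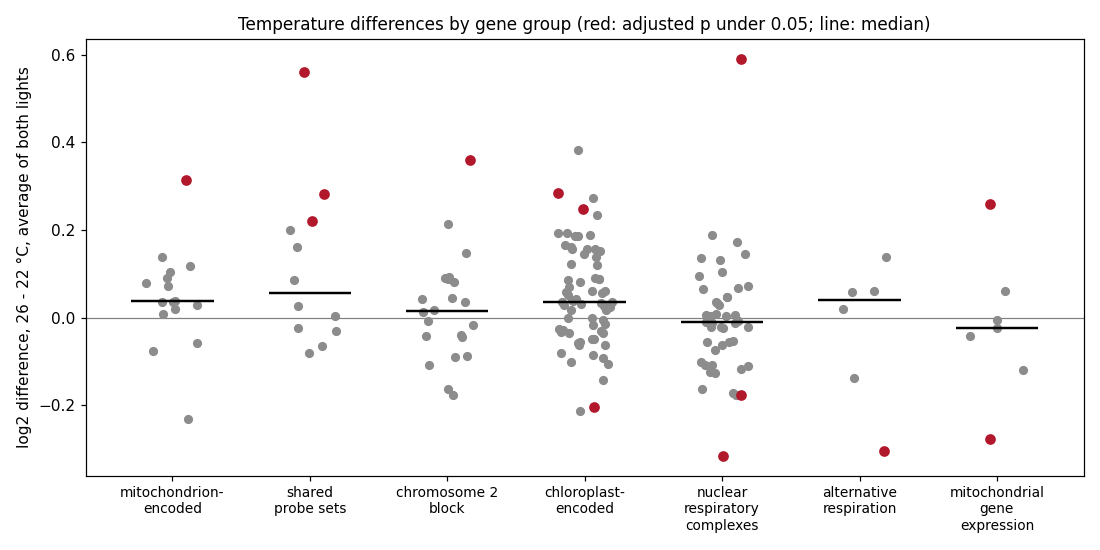
Average temperature differences (log2, 26 minus 22 °C over both lights, vertical axis) of single probe sets in 7 gene groups, with calls at an adjusted p under 0.05 in red and group medians as lines. All 7 medians lie close to 0, from -0.024 to 0.056. Called points are 1 of 16 mitochondrion-encoded genes, 3 of 12 shared probe sets and 1 of 22 in the chromosome 2 block. They are 2 higher and 1 lower of 69 chloroplast genes, and 1 higher and 2 lower of 47 nuclear respiratory genes. In alternative respiration 1 of 6 is called, and in mitochondrial gene expression 1 higher and 1 lower of 7. Of all tested probe sets, 5.39% were called.

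The chloroplast genome, the other organelle genome, gave 69 measured genes. With far-red light on average, 0 of 16 mitochondrial genes and 4 of 69 chloroplast genes rose (limma), where 0.827% of all tested probe sets were called higher, and the medians were 0.053 and 0.020. For the average temperature difference, 1 of 16 mitochondrial genes rose, with a median of 0.038, and 2 of 69 chloroplast genes rose and 1 fell, with a median of 0.036, where 2.92% of all tested probe sets were called higher and 2.48% lower. The difference between the organelle genomes was not tested.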

How the data were processed

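The deposited table holds log2 expression values, 1 per probe set and array, that the authors normalised across 12 one-colour arrays. Per the submitters' processing notes the tools were RMA, affy and MAS5, with no versions stated. The tool behind the table itself was not given in the sources used here. Arrays give no read depth, and their number limits the precision.

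Groups were taken from the labels. After removal of 64 control probe sets, limma 3.58.1 in R 4.3.3 (lmFit, eBayes without trend) was fitted to 22746 probe sets and 12 arrays with 1 mean per group, without a filter on low values. All 16 genes were tested. There were 8 residual degrees of freedom, to which moderation contributed a further 5.99. P-values are two-sided and were adjusted over all tested probe sets by the Benjamini-Hochberg method, and calls are at an adjusted p under 0.05. Errors of differences are standard errors (SE). Genes came from the platform annotation, which gave 13513 probe sets a single gene, 503 several genes and 8730 none. The genes and lists were chosen with earlier results of these data known. Named were all 16 mitochondrial genes, nuclear list genes that passed, NDB2 and RPOTmp, and the genes annotated to shared probe sets that passed. In simulated data for the average temperature difference over 22746 probe sets, the fit recovered 59.7% of changes of 0.3, 92.5% of 0.5 and 98.5% of 1. Of the calls, 4.93% were false. The simulation changed few probe sets, with noise drawn independently for each probe set and array, so rates in the real data may differ.

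Alternatives were other scalings (median subtraction, quantile normalisation, cyclic loess), leaving out the lowest 25% of probe sets, an intensity trend, array weights, the mean of all probe sets of a gene, a replicate block, only the groups compared, and leaving out each array.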

Additional observations from a re-analysis of the deposited data

How the results depend on the processing

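Each of the 7 counts of called genes and 7 median differences was recomputed under up to 21 other settings. With array weights, 2 of the 16 genes were called for warmth in white light, ccb452 higher (adjusted p = 0.0394) and nad2 lower (0.0367), and 1 for the average far-red difference, cox2 higher (0.022). Array weights also gave 1614 calls over all probe sets in place of 139 for the first and 835 in place of 255 for the second. Leaving out each array in turn gave 0 to 1 called genes for the average temperature difference, the 1 gene being ccb452, and 0 in the other 6 comparisons. Under the 8 settings that keep all arrays, ccb452 was called each time (adjusted p of 0.00515 to 0.0254). Subtracting array medians moved the median far-red difference at 22 °C to -0.060 in place of 0.0043, and the average one to 0.0070 in place of 0.053, with 9 of 16 differences positive in place of 12. For warmth in white light it left 8 positive in place of 10. Without 1 array, the median far-red difference lay between -0.017 and 0.049 at 22 °C and between 0.074 and 0.15 at 26 °C.

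Same-numbered arrays of different groups had correlations of -0.259 to 0.120 between their deviations from the group means (median -0.061), against -0.246 to 0.247 for differently numbered ones (median 0.063). Same-numbered arrays were thus not more alike. Deviations from a mean of 3 arrays depend on each other, so this check cannot exclude a pairing by number. With the replicate number as a block, the counts of called genes were the same, 1 for the average temperature difference and 0 otherwise, and calls over all probe sets were 84 in place of 150 for far-red light at 22 °C, 88 in place of 139 for warmth in white light and 138 in place of 250 with far-red light. When only the groups compared entered the fit, which applies to the 4 single comparisons, these 3 counts were 10, 57 and 147. No gene was called with opposite signs under 2 settings, and 125 uncalled differences of single genes, of 2297 recomputed, turned sign. The number of arrays limits the smallest change that could be called.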

Other observations

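The RefSeq order of protein genes on the mitochondrial genome (TAIR10.1 assembly) was taken by a start position for each gene, so separate pieces of trans-spliced genes were not placed. In this order, ccb452 (ccmFC), nad4 and orfX (mttB) follow each other with no other listed protein gene between them. These 3 genes had the 3 largest temperature differences of the 16 with far-red light, 0.33 ± 0.105 for ccb452, 0.21 ± 0.0874 for nad4 and 0.18 ± 0.0950 for orfX (SE; limma, adjusted p = 0.153, 0.291 and 0.419). In white light their differences were 0.30, 0.027 and -0.037. The run of neighbours was noticed after the values were seen and was not tested. The values of ccb452 and orfX come from _s_at probe sets, uncertain as to source. Also adjacent in this order were cox2 and ccb206 (ccmB), with temperature differences of 0.084 and 0.077 with far-red light. So were nad1 and cox1 (0.079 and 0.0043) and nad2 and nad6 (0.068 and 0.025). As nad1 and nad2 are trans-spliced, their pairs are not shown to be neighbours. By the same order matR, nad5 and nad7 follow each other, but nad5 is trans-spliced and matR lies within a nad1 intron. They are therefore not shown to be neighbours. Their temperature differences were 0.095, 0.14 and 0.15 with far-red light and -0.022, 0.065 and -0.26 in white light.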
